A study of Mus musculus with 4 samples.

Results

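The genes described here are Twist1, Twist2, Snai1, Snai2, Zeb1 and Zeb2, which encode the transcription factors best known for driving the epithelial to mesenchymal transition. They were chosen by name, with no threshold on a measured value, but with earlier results of these data known. They are 6 of 43346 gene entries in the expression tables. The samples came from wild-type (WT) mouse embryos at e11.5 (embryonic day) and were 4 outgrowths from which the nose and the jaws form, namely the lateral nasal (LNP), medial nasal (MNP), maxillary (Mx) and mandibular (Md) process. Each process gave 1 bulk RNA-seq library of total RNA, of 13216161 to 16163874 counts, from freshly dissected tissue whose cell type is labelled as mixed, and the sources used here do not give the strain or the number of embryos behind these libraries. For its mice in general, the study states that both sexes were used. The medial nasal library is titled as medial nasal, but its tissue label carries the abbreviation LNP, and the title was followed. The nasal libraries were not copies of each other, since 324 of 12130 genes lay at least 2-fold apart between them. That count cannot decide which label is right, because no process has a further library to compare with. No process was a control, so the 4 libraries were compared with each other.

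Twist1 and Twist2 are basic helix-loop-helix factors that bind E-boxes, short DNA motifs of the form CANNTG, as dimers with E proteins or with each other. Snai1 and Snai2 are zinc finger repressors, and Zeb1 and Zeb2 carry zinc finger clusters around a homeodomain. The Snail and Zeb factors prefer E-boxes of the form CAGGTG, and Cdh1, the gene of the epithelial adhesion protein E-cadherin, is their classical target. In the embryonic face these genes are expressed mainly in the mesenchyme, much of which comes from the neural crest, the cells that leave the dorsal neural tube by such a transition.

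The 250 bases before the annotated start are shown for both Twist genes, whose levels were highest and lowest in the same libraries, and for Snai1, which followed another pattern. Sequences are from RefSeq on GRCm38.p6 and run 5′ to 3′ on the gene's strand, with each CANNTG match in capitals. Twist1 is at chr12:33957421-33957670 (plus strand), Twist2 at chr1:91801211-91801460 (plus strand) and Snai1 at chr2:167537945-167538194 (plus strand).
Twist1: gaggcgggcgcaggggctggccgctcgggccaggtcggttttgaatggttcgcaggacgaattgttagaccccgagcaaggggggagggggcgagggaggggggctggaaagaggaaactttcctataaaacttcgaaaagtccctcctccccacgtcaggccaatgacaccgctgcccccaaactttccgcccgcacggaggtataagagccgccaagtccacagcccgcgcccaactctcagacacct
Twist2: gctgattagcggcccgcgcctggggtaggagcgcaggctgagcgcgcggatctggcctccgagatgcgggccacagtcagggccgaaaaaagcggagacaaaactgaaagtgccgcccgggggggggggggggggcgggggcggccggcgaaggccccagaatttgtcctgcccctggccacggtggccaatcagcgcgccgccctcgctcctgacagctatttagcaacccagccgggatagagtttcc
Snai1: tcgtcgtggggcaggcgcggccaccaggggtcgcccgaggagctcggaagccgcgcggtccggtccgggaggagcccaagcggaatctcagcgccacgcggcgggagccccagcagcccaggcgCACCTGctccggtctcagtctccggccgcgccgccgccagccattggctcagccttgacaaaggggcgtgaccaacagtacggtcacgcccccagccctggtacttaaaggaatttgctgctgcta
The motifs searched were CANNTG, which reads the same on both strands, and the Snail and Zeb form of it, CAGGTG, on either strand. The Snai1 stretch held 1 match, a CAGGTG on the minus strand that reads CACCTG here, which begins 126 bases before the start. Neither Twist stretch held a match to CANNTG, and none was found in the 250 bases before any of the 4 annotated Zeb2 starts. Among 32851 promoter stretches of the same length, 66.2% held CANNTG and 17.2% held CAGGTG on either strand. G and C made up 62.4% of the Twist1 stretch, 68.8% of the Twist2 stretch and 70.0% of the Snai1 stretch.

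All 6 genes were expressed in all 4 libraries, at 10.6 CPM or more, where CPM are counts scaled to a common library size of 1000000 with a correction for library composition. A pair of libraries was called apart where log2(CPM + 0.5) differed by at least 1, that is 2-fold, with the higher level at 5 CPM or more. Intervals are exact 95% intervals and cover counting error only. With 1 library per process no difference could be tested against replicates. Of 36 comparisons of 6 genes over 6 pairs of libraries, 6 were called apart, and the interval of the fold included 1 in 4. The Mx library was the highest for 4 genes (Twist1, Twist2, Snai2 and Zeb2), beside 27.5% of the 12406 genes at 5 CPM or more in at least 1 library. The MNP library was the lowest for 3 genes (Twist1, Twist2 and Snai2), beside 33.1% of those genes. The pattern of highest in Mx and lowest in MNP, seen for these 3 genes, was found for 15.2% of the 12406 genes. Fewer mesenchymal cells and less RNA of a gene per mesenchymal cell cannot be told apart in bulk tissue.

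**Figure D1:**
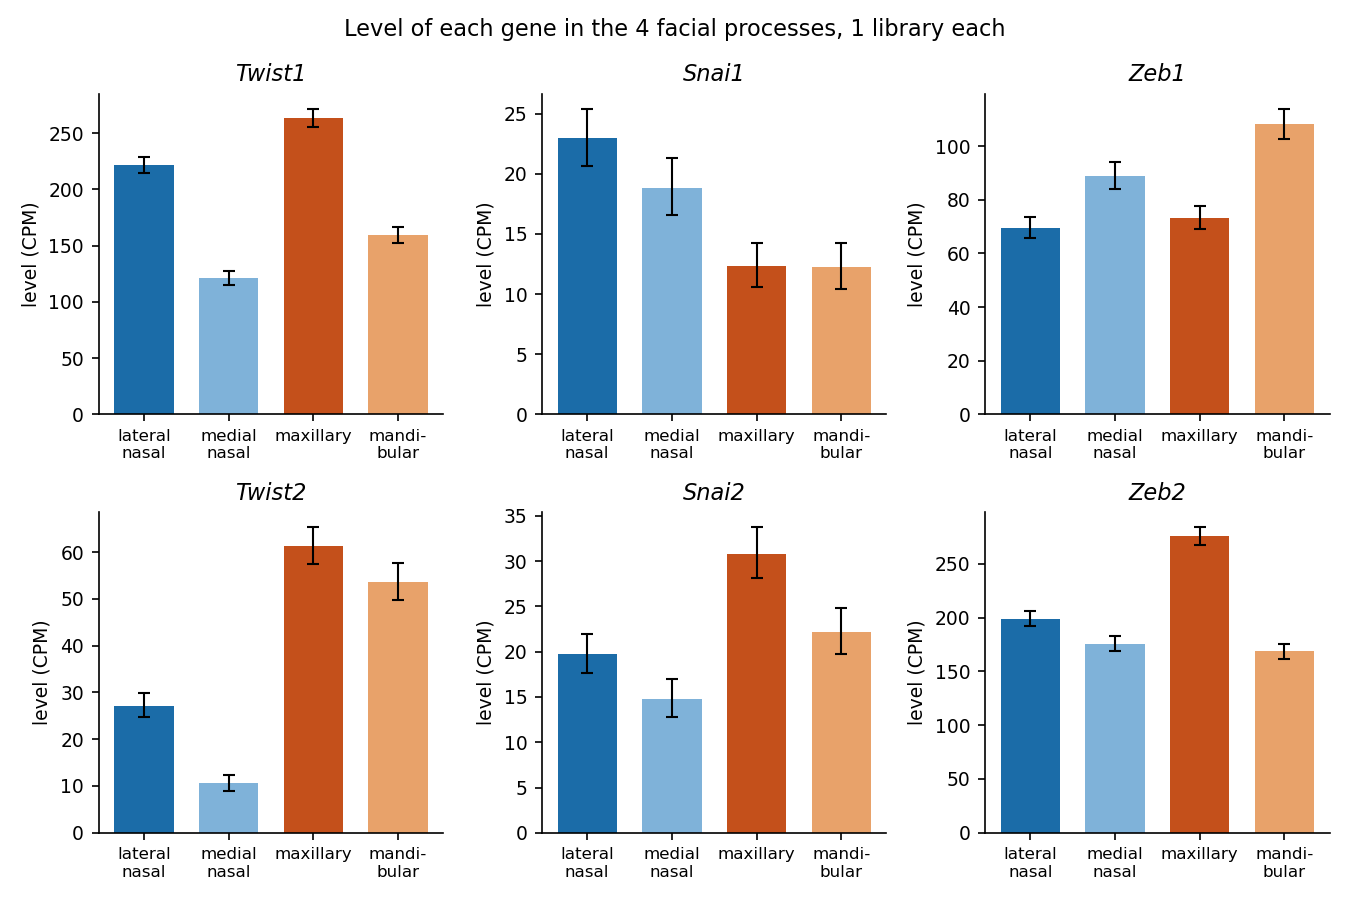
Level in CPM (y axis, from 0, on a scale of its own for each gene) of the 6 genes in the lateral nasal (LNP), medial nasal (MNP), maxillary (Mx) and mandibular (Md) library (x axis). Bars are the value of 1 library and error bars exact Poisson intervals. Twist1, Twist2, Snai2 and Zeb2 were highest in Mx, Snai1 in LNP and Zeb1 in Md.

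Twist2 differed most of the 6 genes and was higher in the jaw processes, Mx and Md, than in the nasal processes. In human, loss of TWIST2 causes a facial skin syndrome, and in mouse the gene acts in dermis and bone precursors. It stood at 61.3 CPM in Mx, 53.5 CPM in Md, 27.2 CPM in LNP and 10.6 CPM in MNP. The counts behind these levels were 930 in Mx, 721 in Md, 442 in LNP and 143 in MNP. The nasal processes were themselves apart, with MNP far below the rest. The fold of Mx over MNP was 5.80 (interval 4.85 to 6.96), a range that only 1.95% of the 12406 genes reached. The fold of Md over MNP was 5.06 (4.23 to 6.10), that of LNP over MNP 2.57 (2.13 to 3.13) and that of Mx over LNP 2.25 (2.01 to 2.53). Md over LNP was just under the threshold at 1.97 (1.75 to 2.22), and Mx over Md was 1.14 (1.04 to 1.26).

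Twist2 was the single member called in one process against each of the other 3 libraries. A gene was called lower in a process where it lay 2-fold or more under each of the other 3 libraries and these all reached 5 CPM. It was called higher where it reached 5 CPM and lay 2-fold or more over each other library. Twist2 was lower in MNP, as were 0.145% of the genes that could be called so. No member was higher in LNP (0.241% of genes), MNP (1.04%), Mx (0.217%) or Md (0.907%). None was lower in LNP (0.135%), Mx (0.0994%) or Md (0.305%).

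Part of the Twist2 count depended on how reads were assigned. The gene (ENSMUSG00000007805) lies on chromosome 1 from 91801461 to 91848028 of GRCm38, on the plus strand, and the single exon of the antisense gene Gm29100 covers 1477 of its 3174 exonic bases. The expected counts of Twist2 and Gm29100 were fractions in every library but added up to whole numbers, 1038 in Mx, 813 in Md, 534 in LNP and 195 in MNP. Reads over the shared bases were thus divided between both genes. The library kit keeps strand, but whether the counting used it is not given in the sources used here, so reads of sense and antisense RNA cannot be told apart there. Gm29100 took 10.4% of the sum in Mx, 11.3% in Md, 17.2% in LNP and 26.5% in MNP. With both counted together, the levels were 68.4 CPM in Mx, 60.4 CPM in Md, 32.9 CPM in LNP and 14.4 CPM in MNP. The order was the same and each Twist2 call remained. Gm29101, annotated within an intron on the same strand, was also higher in the jaw processes, at 6.53 CPM in Md and 4.41 CPM in Mx, against 1.85 CPM in MNP and 1.48 CPM in LNP.

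Twist1 was the most abundant of the 6 by TPM, which corrects for transcript length, and also differed 2-fold. It is required in mouse cranial neural crest mesenchyme, and loss of 1 human copy causes a craniosynostosis syndrome. Twist1 (ENSMUSG00000035799, chromosome 12 from 33957671 to 33959829) reached 263 CPM in Mx, 222 CPM in LNP, 159 CPM in Md and 121 CPM in MNP. The fold of Mx over MNP was 2.18 (2.05 to 2.31), a range that 8.27% of genes reached. The LNP level was close behind, with a fold of Mx over LNP of 1.19 (1.14 to 1.24), and lay 1.83-fold above the MNP level (1.73 to 1.94). Twist1 and Twist2 thus shared the highest and the lowest library but not the order between them, since LNP came second for Twist1 and the third for Twist2.

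Snai2 showed the same ends as the Twist genes. It encodes the Slug protein, a marker of premigratory and migrating neural crest in chick and frog. Snai2 (ENSMUSG00000022676, chromosome 16 from 14705852 to 14709385) stood at 30.8 CPM in Mx, 22.2 CPM in Md, 19.7 CPM in LNP and 14.8 CPM in MNP. The fold of Mx over MNP was 2.09 (1.76 to 2.47), so it only just passed the threshold, and 9.22% of genes had as large a range. The log2 difference was 1.04. It was under 1, and the call was lost, with the deposited TPM, with protein-coding genes alone, with a pseudocount of 2 and with total counts without factors. Md and LNP levels did not differ beyond counting error (1.13-fold, interval 0.959 to 1.32).

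Snai1 ran the other way. It encodes Snail, which mouse embryos need at gastrulation. Snai1 (ENSMUSG00000042821, chromosome 2 from 167538195 to 167542814) had 23.0 CPM in LNP, 18.8 CPM in MNP, 12.3 CPM in Mx and 12.2 CPM in Md. Both nasal levels were above both jaw levels, with folds from 1.53 (1.26 to 1.86, MNP over Mx) to 1.87 (1.56 to 2.27, LNP over Md). None reached 2-fold, and 12.0% of genes had a range as large as that of Snai1. Mx and Md levels could not be separated, at 1.01-fold (0.811 to 1.25), and their order turned round with the deposited TPM and with protein-coding genes alone.

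Zeb2 and Zeb1 varied least. Human ZEB2 is the gene of Mowat-Wilson syndrome, which includes a characteristic face, and mouse Zeb1 is needed for skeletal and craniofacial development. Zeb2 (ENSMUSG00000026872, chromosome 2 from 44983632 to 45117395, minus strand) reached 275 CPM in Mx, 199 CPM in LNP, 176 CPM in MNP and 169 CPM in Md. The Mx level stood apart from the other 3, at 1.63-fold over Md (1.55 to 1.72), 1.57-fold over MNP (1.49 to 1.65) and 1.39-fold over LNP (1.32 to 1.45). MNP and Md levels of Zeb2 did not differ beyond counting error (1.04-fold, 0.983 to 1.10).

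Zeb1 (ENSMUSG00000024238, chromosome 18 from 5591860 to 5775467) was highest where Zeb2 was lowest. It stood at 108 CPM in Md, 88.8 CPM in MNP, 73.4 CPM in Mx and 69.6 CPM in LNP. The fold of Md over LNP was 1.56 (1.44 to 1.68), and 19.3% of genes had as large a range, against 16.4% for Zeb2. Mx over LNP was 1.05 (0.969 to 1.15), within counting error. Zeb1 and Zeb2 also overlap antisense genes, Gm10125 and Zeb2os, with which they shared 198 of 10266 and 653 of 19942 exonic bases. Gm10125 took 3.62 to 5.67% of the joint Zeb1 count and Zeb2os 0.675 to 0.769% of the joint Zeb2 count over the 4 libraries.

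**Figure D2:**
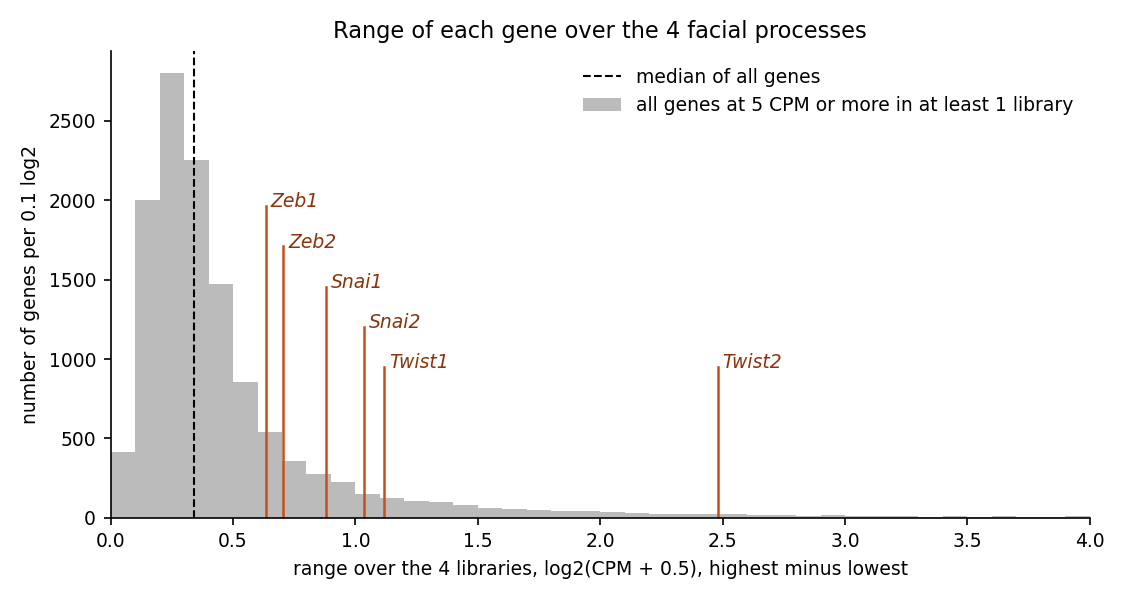
Number of genes (y axis) by the range of log2(CPM + 0.5) over the 4 libraries, highest minus lowest, in bins of 0.1 (x axis), for the 12406 genes at 5 CPM or more in at least 1 library, of which 57 lie beyond the axis end at 4. The dashed line is the median of 0.34. Lines in colour mark the 6 genes, all to the right of the median, with Twist2 farthest at 2.48.

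The largest number of members was apart between the Mx and MNP libraries. There, Twist1, Twist2 and Snai2 were called, 3 of 6, beside 5.14% of all genes. In each other pair at most Twist2 was called. It was apart between LNP and MNP (2.67% of all genes), between Mx and LNP (2.89%) and between Md and MNP (5.47%). No member was called between Md and LNP (4.96%) or between Mx and Md (2.75%). With the threshold at 3-fold, for which no share of all genes is given, Twist2 alone was apart, in Mx and in Md against MNP.

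Levels of the 6 genes were set against each other in TPM. Twist1 and Zeb2 ranked first and second in every library. Twist1 had 149 TPM in Mx, 131 TPM in LNP, 92.6 TPM in Md and 70.5 TPM in MNP. Zeb2 had 60.8 TPM in Mx, 41.6 TPM in LNP, 37.5 TPM in MNP and 36.2 TPM in Md. Twist2 changed its place most. It was the third of the 6 in Mx (37.2 TPM) and in Md (31.3 TPM), the fourth in LNP (17.7 TPM) and last in MNP (6.36 TPM). Zeb1 lay between 18.3 and 30.7 TPM, Snai1 between 6.93 and 13.6 TPM and Snai2 between 6.69 and 13.5 TPM. The sum of the 6 was 287 TPM in Mx, 231 TPM in LNP, 208 TPM in Md and 155 TPM in MNP. Twist1 made up 51.7% of this sum in Mx, 56.7% in LNP, 44.5% in Md and 45.3% in MNP.

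The balance within each paralog pair differed between libraries. Twist1 exceeded Twist2 in TPM by 11.1 times in MNP, 7.41 times in LNP, 3.99 times in Mx and 2.96 times in Md. The ratio was thus higher in both nasal than in both jaw processes. The ratio of Twist1 to Twist2 counts, which is not corrected for length, was 11.4 (9.64 to 13.7) in MNP and 2.98 (2.73 to 3.24) in Md. For the Snail pair the leading gene changed. Snai2 over Snai1 in TPM was 1.95 in Mx and 1.42 in Md, but 0.669 in LNP and 0.612 in MNP. The count ratios were 2.50 (2.11 to 2.98) in Mx and 1.81 (1.49 to 2.21) in Md, against 0.858 (0.737 to 0.999) in LNP and 0.784 (0.648 to 0.948) in MNP. Zeb2 exceeded Zeb1 in every library, by 2.98 times in Mx, 2.28 times in LNP, 1.59 times in MNP and 1.18 times in Md.

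**Figure D3:**
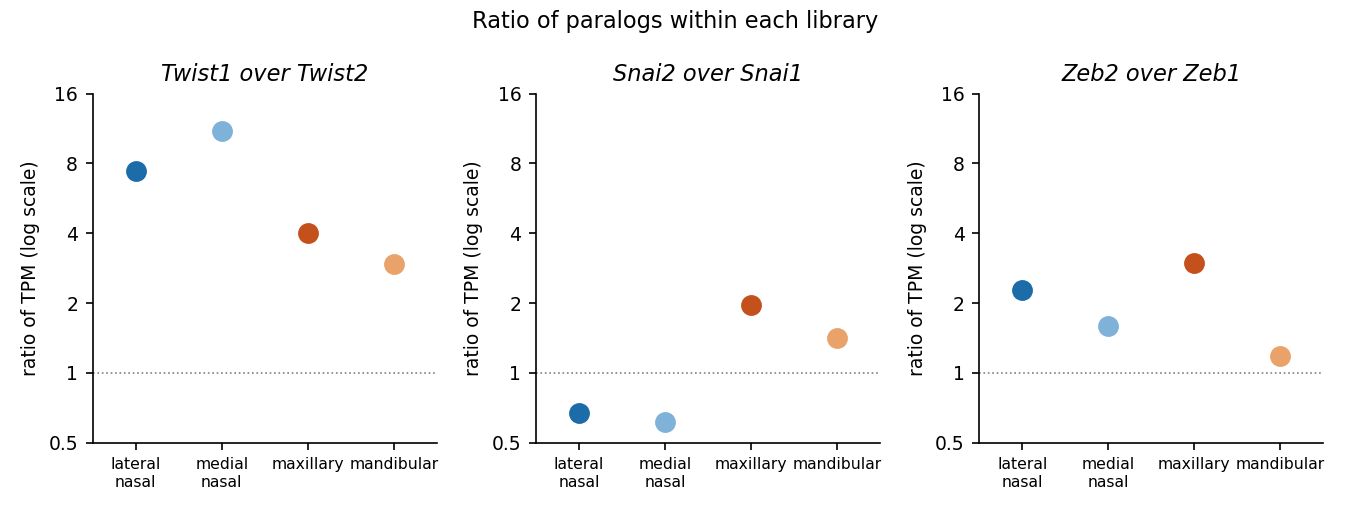
Ratio of TPM within each library (y axis, log scale) for Twist1 over Twist2, Snai2 over Snai1 and Zeb2 over Zeb1, by process (x axis). Points are values of 1 library and the dotted line is a ratio of 1. Snai2 exceeded Snai1 in the Mx and Md libraries only, and Twist1 exceeded Twist2 most in MNP, at 11.1.

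Among genes that work with these factors, the calls in one process fell on the Hand genes and Id4. The E proteins Tcf3, Tcf4 and Tcf12, dimer partners of Twist proteins, were not called in any process. Hand1 and Hand2, which can pair with Twist1, were called higher in Md. Hand2 had 103 CPM in Md, 1.32 CPM in Mx, 0.308 CPM in LNP and 0 counts in MNP, and Hand1 had 8.46 CPM in Md and under 0.1 CPM in each of the others. Id proteins take E proteins out of action, and of these Id4 was called lower in Md. It had 2.75 CPM there, against 20.8 CPM in MNP, 19.1 CPM in LNP and 7.11 CPM in Mx. Id1, Id2 and Id3, named after their values were seen, were not called. The 12 genes of Snail and Zeb co-repressors, which include the Ctbp, Hdac and Polycomb genes, held no call in any process. Of these, Wtip had the largest range, at 34.2 CPM in Md, 33.7 CPM in Mx, 29.7 CPM in LNP and 25.4 CPM in MNP. The Snail relatives Snai3, Scrt1 and Scrt2 stayed at or under 2.44 CPM, and Scrt1 reached that level in MNP.

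Most of the genes on the epithelial side were higher in the nasal processes. The median log2 difference of a library from the mean of the other 3, taken over 16 epithelial genes, was 0.67 in LNP, 0.55 in MNP, -0.46 in Mx and -0.66 in Md. The same median over all 16146 genes at 1 CPM or more in at least 1 library ran from 0.012 in LNP to -0.0095 in MNP. For the 6 members it was 0.65 in Mx, -0.08 in LNP, -0.09 in Md and -0.46 in MNP. Of the 16 epithelial genes, 15 exceeded that mean in LNP, 14 in MNP, 2 in Mx and 1 in Md, but none was called in a process. A gene raised alike in both nasal processes cannot be called higher in either, so the lack of calls does not show small differences. The summed level of the 16 genes was 507 CPM in MNP, 506 CPM in LNP, 334 CPM in Mx and 323 CPM in Md.

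Of the epithelial genes, Cldn6, a claudin of tight junctions, had 48.4 CPM in LNP, 42.0 CPM in MNP, 24.0 CPM in Mx and 14.6 CPM in Md. Ocln, the occludin gene, had 11.6 CPM in LNP, 9.53 CPM in MNP, 3.23 CPM in Mx and 2.52 CPM in Md. Ocln was thus more than 2-fold higher in each nasal than in each jaw library, a pattern that the rule for 1 process cannot call. Cdh1, named after its values were seen as the classical target, varied less, at 57.2 CPM in LNP, 54.1 CPM in MNP, 39.7 CPM in Md and 38.5 CPM in Mx. The 10 epithelial regulators with an entry had medians of this difference of 0.35 in LNP, 0.28 in MNP, -0.11 in Mx and -0.37 in Md, and none was called. Of these 10 genes, 7 exceeded that mean in LNP, 8 in MNP, 4 in Mx and 2 in Md. Trp63, which encodes the epithelial factor p63, was highest in Mx at 51.0 CPM, and Klf5 was highest in Md at 1.71 CPM (both named after their values were seen). Grhl2, a regulator of epithelial identity that opposes Zeb1, had 37.7 CPM in LNP, 31.0 CPM in MNP, 24.6 CPM in Mx and 17.3 CPM in Md. Snai1 was thus higher in the libraries with more RNA of epithelial genes, and Twist2 in those with less. The part of epithelial RNA in either difference was not tested.

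The medians of mesenchymal genes varied less between libraries than those of epithelial genes. The median over 16 of them was 0.12 in Mx, 0.05 in Md, 0.02 in MNP and -0.14 in LNP, and none was called. A gene raised alike in both jaw processes cannot be called higher in either, and Prrx1 and Postn had this pattern, each by more than 2-fold. Of the 16 mesenchymal genes, 10 exceeded the mean of the other libraries in Mx, 9 in MNP and 8 in Md. In LNP only 3 did, beside 8395 of all 16146 genes. Their summed level was 7645 CPM in Mx, 7281 CPM in Md, 6842 CPM in MNP and 6227 CPM in LNP. Prrx1 and Postn had the largest ranges, with the same order of libraries as Twist2. Prrx1, a homeobox gene of facial and limb mesenchyme, had 888 CPM in Mx, 864 CPM in Md, 379 CPM in LNP and 282 CPM in MNP. Postn, the periostin gene, had 298 CPM in Mx, 245 CPM in Md, 92.1 CPM in LNP and 84.7 CPM in MNP. The collagen gene Col1a1 ran otherwise, at 246 CPM in Md, 208 CPM in MNP, 203 CPM in Mx and 107 CPM in LNP. Of 10 neural crest factors, Sox9 was called higher in MNP (113 CPM, against at most 40.7 CPM) and Pax3 in LNP (155 CPM, against at most 69.4 CPM). Tfap2b, also a neural crest factor, was not called but spanned 206 CPM in MNP, 109 CPM in LNP, 41.2 CPM in Mx and 22.3 CPM in Md. Of 10 craniosynostosis genes, Zic1 was called, higher in MNP (30.0 CPM, against at most 6.77 CPM).

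**Figure D4:**
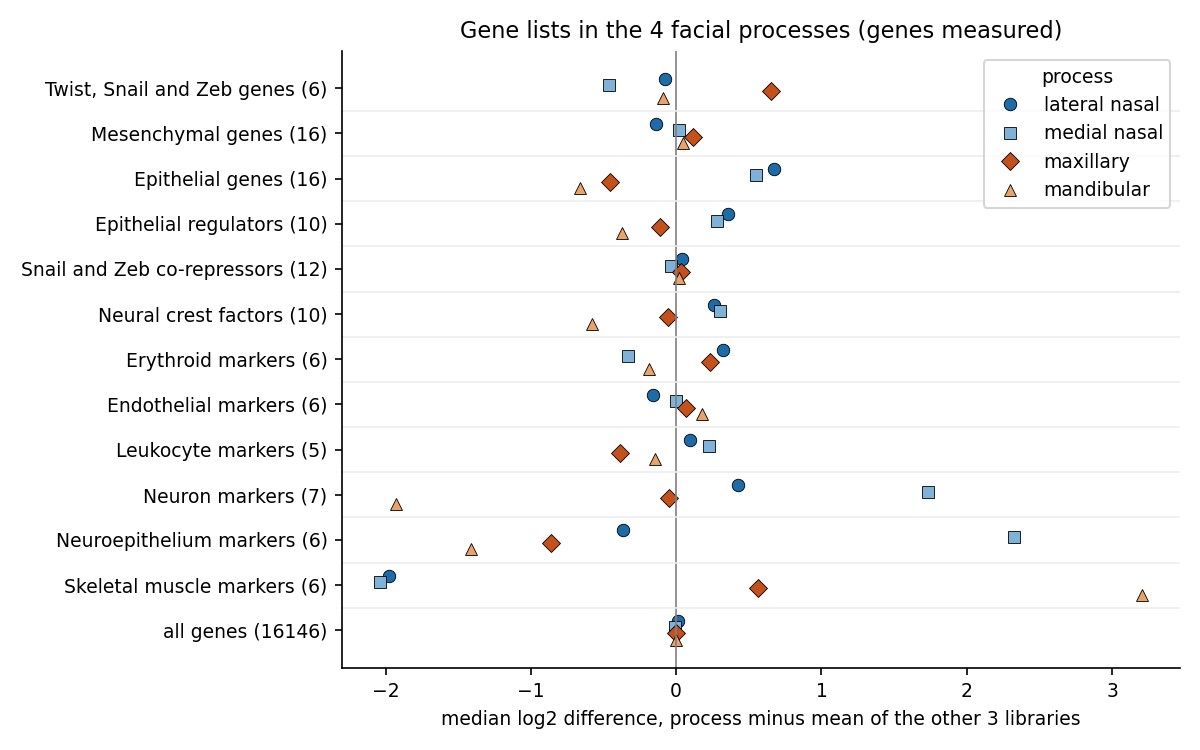
Median log2 difference of each library from the mean of the other 3 (x axis) for the 6 genes and for gene lists (rows, with the number of genes measured), 1 symbol per process. The 6 genes lie highest in Mx (0.65) and lowest in MNP (-0.46), epithelial genes lie above 0 in both nasal processes and below 0 in both jaw processes, and the median of all genes lies between 0.012 (LNP) and -0.0095 (MNP).

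RNA of other cell types also differed between the libraries. The summed level of 7 neuron markers was 323 CPM in MNP, 174 CPM in LNP, 135 CPM in Mx and 64.0 CPM in Md, with Dcx and Elavl3 called higher in MNP and Tubb3 and Stmn2 lower in Md. The 6 neuroepithelium markers summed to 31.6 CPM in MNP and to between 4.31 and 15.9 CPM in the others, with Six6 and Lhx5 at 0 counts in Md. The 6 erythroid markers, led by the globin gene Hbb-y, summed to 3495 CPM in LNP, 3225 CPM in Mx, 2507 CPM in Md and 2242 CPM in MNP, the library that was also the lowest for Twist1, Twist2 and Snai2. The 6 skeletal muscle markers summed to 125 CPM in Md, 34.8 CPM in Mx, 5.60 CPM in LNP and 5.32 CPM in MNP, and 5 of them were called higher in Md. Endothelial markers (230 to 268 CPM) and leukocyte markers (20.4 to 24.0 CPM) stayed within narrow ranges. Schwann cell precursor markers summed to between 57.5 and 90.1 CPM. The part of these cell types in the levels of the 6 genes was not tested.

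The nearest protein-coding genes that reached 5 CPM varied by less than 2-fold over the libraries. Hdac9, beyond Twist1, had 9.79 CPM in LNP, 9.09 CPM in MNP, 5.42 CPM in Md and 5.01 CPM in Mx, and so was higher in the nasal processes. Ferd3l, on the other side of Twist1, had at most 5 counts in a library. Asb1 and Hdac4, on either side of Twist2, had 20.4 to 24.0 and 68.3 to 83.5 CPM over the 4 libraries. Rnf114 (68.0 to 89.0 CPM) and Ube2v1 (82.9 to 97.7 CPM) flank Snai1, and Efcab1 (5.14 to 6.61 CPM) and A630010A05Rik (0 counts) flank Snai2. Gtdc1 (24.0 to 28.7 CPM) and Acvr2a (66.1 to 99.1 CPM) flank Zeb2, and Zfp438 (3.19 to 4.88 CPM) and Arhgap12 (70.1 to 80.3 CPM) flank Zeb1.

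The genes most alike in pattern were found by the root mean square difference of centred log2(CPM + 0.5) over the 4 libraries, among 10404 protein-coding genes at 5 CPM or more in every library. This is a description over 4 points. Nearest to Twist1 were Wnt7b, Lgals1, Rspo3, Hist2h4 and Rab27a (0.06 to 0.10). Nearest to Twist2 were Zfp503, Mab21l2, Mab21l1, Col6a1 and Tbx18, but at 0.20 to 0.34, and no gene came within 0.1. Mab21l2, for example, had 327 CPM in Mx, 235 CPM in Md, 90.3 CPM in LNP and 41.1 CPM in MNP. Nearest to Snai1 were Rab27b, Enpp3, Mgst1, Cdcp1 and Wfdc2 (0.01 to 0.06), and nearest to Snai2 were Col24a1, Mycn, Glt8d2, Krt5 and Axin2 (0.04 to 0.08). Zeb1 was closest to Mast4, Zfp628, Itga5, Piezo1 and D630045J12Rik, with 200 genes within 0.1, and Zeb2 to Mdfic, Tepsin, Ift43, Sema3d and Col26a1, with 45 within 0.1.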

How the data were processed

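RNA of 1 library per process was analysed. Per the labels, the authors depleted ribosomal RNA and made libraries with a TruSeq kit that keeps strand. They sequenced single-end reads of 50 bases and processed them with STAR and RSEM 1.4.1 on mm10 with GENCODE M4, in a pipeline for a single replicate. Whether RSEM was run with a strand setting is not given in the sources used here. The deposited expected counts are estimates that need not be whole, since reads that match several genes are divided among them. The authors also deposited TPM and FPKM, which correct for length, posterior mean counts, and other columns such as gene length and credible intervals. FPKM was not used.

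The 43346 gene entries entered with their expected count rounded. Another 26248 entries that carry only a number (1 to 5 counts per library) and 96 spike-in entries (0 counts) were left out. Symbols and coordinates were those of GENCODE M21 (GRCm38, which is mm10), which matched 42462 IDs and left 884 without a symbol. Library totals were 13216161 to 16163874 counts, so that 3 counts, the limit a count of 0 allows, equal 0.185 to 0.223 CPM. CPM used TMM factors from edgeR 4.0.16, taken over genes that reached 10 counts in a library (LNP 1.01, MNP 1.02, Mx 0.987 and Md 0.985). Intervals of folds are exact conditional binomial (Clopper-Pearson) and those of levels exact Poisson, computed with SciPy 1.17.1. All other calculations used Python 3.11.15, pandas 2.3.3 and matplotlib 3.10.9. The calling rules were run on simulated counts with Poisson counting error only. That run cannot show how the rules behave under the spread between embryos.

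Named are the members, from each gene list every gene called in a process and the 3 with the largest log2 range at 5 CPM or more in at least 1 library, nearest and overlapping genes, and for members with a range of at least 1.5-fold the 5 protein-coding genes most alike. Many of those list genes are given by their list's counts and sums only, and a result on another list gene is not reported here. Members and lists were chosen with earlier results of these data known. Mir205hg, on the list of epithelial regulators, had no matched entry. Of the members, 4 of 6 had promoters in the RefSeq table used. Of the 50-base stretches of each member's GENCODE M21 transcripts, under 1% occur in transcripts of other genes on the same strand, but 45.7% of those of Twist2 occur in Gm29100 on the opposite strand. The posterior mean of each member differed from its expected count by less than 10%. Alternatives were DESeq2 1.42.0 size factors, totals without factors, a table of protein-coding genes alone, the deposited TPM, posterior mean counts, a pseudocount of 0.1 or 2, a minimum of 1 or 20 CPM or none, thresholds of 1.5-fold and 3-fold, list minimums of 5 CPM or none, and, chosen after seeing the data, joint counts with antisense genes.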

Additional observations from a re-analysis of the deposited data

How the results depend on the processing

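With a 1.5-fold threshold, the number of members apart was 5 between Mx and MNP, 3 between Mx and LNP, 3 between Md and LNP, and 2 in each of the other 3 pairs. With a 3-fold threshold it was 1 between Mx and MNP, 0 between LNP and MNP and 0 between Mx and LNP, and 0 members were called in one process. These counts move by construction of the threshold. The shares of all genes given above hold for the 2-fold threshold alone, so these counts cannot be set against all genes. Of the fold changes of members under the other settings, 284 moved by less than their counting interval and 4 by more. Those 4 were Twist1 and Zeb2 of Mx over LNP with TPM (log2 0.18 and 0.54) and Twist2 counted with Gm29100 (log2 2.21 for Mx over MNP and 2.03 for Md over MNP). No called fold changed its direction. No scaling moved the median of all genes by 0.1 log2 or more. No paired analysis was possible because each process has 1 library and no result comes from a test. Counts of 143 to 4181 reads per member limit counting error, but the spread between embryos is unknown.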
